A study of Drosophila melanogaster with 4 samples.

Results

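Aminoacyl-tRNA synthetases are the enzymes that join each amino acid to its transfer RNA. They were chosen here by gene symbol, an amino acid code followed by RS, with a final -m for the mitochondrial enzyme. The rule found 35 of the 15744 probes on the arrays, for 32 genes, of which 18 encode cytosolic and 14 mitochondrial enzymes. The gene table of the fly assembly Release 6 holds 35 such genes, and AspRS, MetRS and AlaRS-m had no probe with a single gene symbol. The symbol GluProRS names 2 amino acids, since this gene encodes the glutamyl and prolyl enzymes in 1 protein, and it was kept among the cytosolic genes.

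The series asked which messenger RNAs are bound in the forming eye of Drosophila melanogaster by B52, an SR protein that takes part in the choice of splice sites. Larvae of the third instar carried either GFP-B52 or, as the control, GFP-NLS, which is GFP with a nuclear localisation signal, and both transgenes were crossed to GMR, a driver of the developing eye. The front ends of 600 larvae were pooled per extract, RNA was precipitated with an antibody to GFP, and both polyadenylated precipitates were hybridised to the same two-colour array. Each of 2 replicates was run with both dye orientations, which gave 4 arrays. Both groups therefore carry a GFP fusion under the same driver, the pools hold every tissue of the larval front end, and the ratio holds no input extract. The labels do not say whether the replicates came from separate larvae, so a p-value here reflects the spread of these samples alone, and that spread may be technical. Since each extract is a bulk sample, fewer cells of a type and less RNA per cell cannot be told apart.

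Charging is the step at which the genetic code is read into amino acids, and 2 sets of synthetases carry it out in animals. Most cytosolic enzymes serve translation on cytosolic ribosomes, several of them bound in a multisynthetase complex, while the mitochondrial enzymes are encoded in the nucleus and imported to translate the few proteins of the mitochondrial genome. The enzymes fall into class I and class II, which have unrelated catalytic folds. The messenger RNAs of both sets are made in every growing cell, so the genes are not markers of the eye.

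The deposited values are log ratios of the 2 channels, with medians between 0.002 and 0.006 per array. Neither the log base nor which channel stands on top is given in the sources used here. Values are given in deposited log units, with folds on a log10 and a log2 reading where they help. An array is called by its replicate and by the dye of the GFP-B52 precipitate. For the main reading the sign of both Cy5 arrays was turned, which makes the ratio of the precipitates run one way if the columns hold a fixed ratio of the dyes. Positive values then lie on the side of B52 probe 13309, called the B52-probe side. That probe was deposited at -0.447 and 0.417 in replicate 1 and at -0.508 and 0.504 in replicate 2, on the Cy5 and the Cy3 array. The other 4 probes of B52 did not alternate in this way in both replicates. Probes 832, 2144 and 2736 kept 1 sign on both arrays of replicate 1 and had turned means of 0.131, 0.108 and 0.0300. In replicate 2 probe 2144 was deposited at -0.166 and 0.169 and probe 2736 at -0.135 and 0.108, while probe 832 kept 1 sign. Probe 4048 lay on the opposite side, with a turned mean of -0.326. It was deposited at 0.141 and 0.045 in replicate 1 and at 0.158 and -1.049 in replicate 2. The values of probe 13309 were known when the turning was chosen, and which precipitate was higher on that side is not known. Values on the 4 arrays are turned and follow 1 order, the Cy5 and Cy3 arrays of replicate 1 and then those of replicate 2.

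No synthetase probe passed the test over all probes. A value on all 4 arrays was present for 13963 probes, among them 33 of the 35 synthetase probes. In limma on the replicate means 0 synthetase probes had an adjusted p under 0.05, beside 0.00% of all probes, and their adjusted p lay between 0.319 and 0.986. Over all probes 729 and 1079 had an unadjusted p under 0.05 above and below 0. With the replicate as a random block, 447 had an adjusted p under 0.05 in limma, none of them a synthetase probe. That fit counted all 4 arrays with a correlation of -0.664 within a replicate, which narrows the error of a mean. Among the synthetase probes, that unadjusted threshold was reached by 3 synthetase probes on the B52-probe side, where 5.22% of all probes did so, and by 1 on the opposite side, where 7.73% did. The 3 were alpha-PheRS, GlyRS and HisRS, and the 1 was a probe of IleRS. Their values were also small within the table. A distance from 0 of 0.301 log units or more with the same sign on every array, which is 2-fold on a log10 reading, was found for 0.143% of all probes and for no synthetase probe, and 1055 probes had a mean farther from 0 than the largest of any synthetase probe.

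On the turned reading, the cytosolic synthetase genes as a group lay on the B52-probe side, and the mitochondrial ones lay around 0. Of 18 cytosolic genes 15 had a mean above 0, as had 46.0% of all 11173 genes, and their median was 0.0754 log units beside -0.00725 for all genes. Of 13 mitochondrial genes with a value on all arrays 6 had a mean above 0, and their median was -0.00725. The upper quartile of all genes lay at 0.0448, which 14 of 18 cytosolic genes and 1 of 13 mitochondrial genes exceeded, where 24.9% of all genes did (a threshold picked with the values in view). The other 12 mitochondrial genes lay between the quartiles of all genes. The median of the cytosolic genes was 0.0478 in replicate 1 and 0.0860 in replicate 2, that of the mitochondrial genes -0.0310 and 0.0205.

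The 2 replicates, on the turned reading, repeated the cytosolic side more often than the mitochondrial one. Above 0 in both replicates were 12 of 18 cytosolic genes and 1 of 13 mitochondrial genes, where 27.9% of all genes were. The sign was the same in both replicates for 14 cytosolic genes, which is 77.8%, for 3 mitochondrial genes, which is 23.1%, and for 61.3% of all genes. The difference between the compartments, cytosolic minus mitochondrial median, was 0.0788 in replicate 1 and 0.0655 in replicate 2. Without turning, this difference was -0.197 in replicate 1 and 0.0320 in replicate 2. The same sign in both replicates was then more frequent among the mitochondrial genes than among the cytosolic ones. These are counts and medians of members chosen with earlier results known, so no test was made of either list or of the difference.

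**Figure D1:**
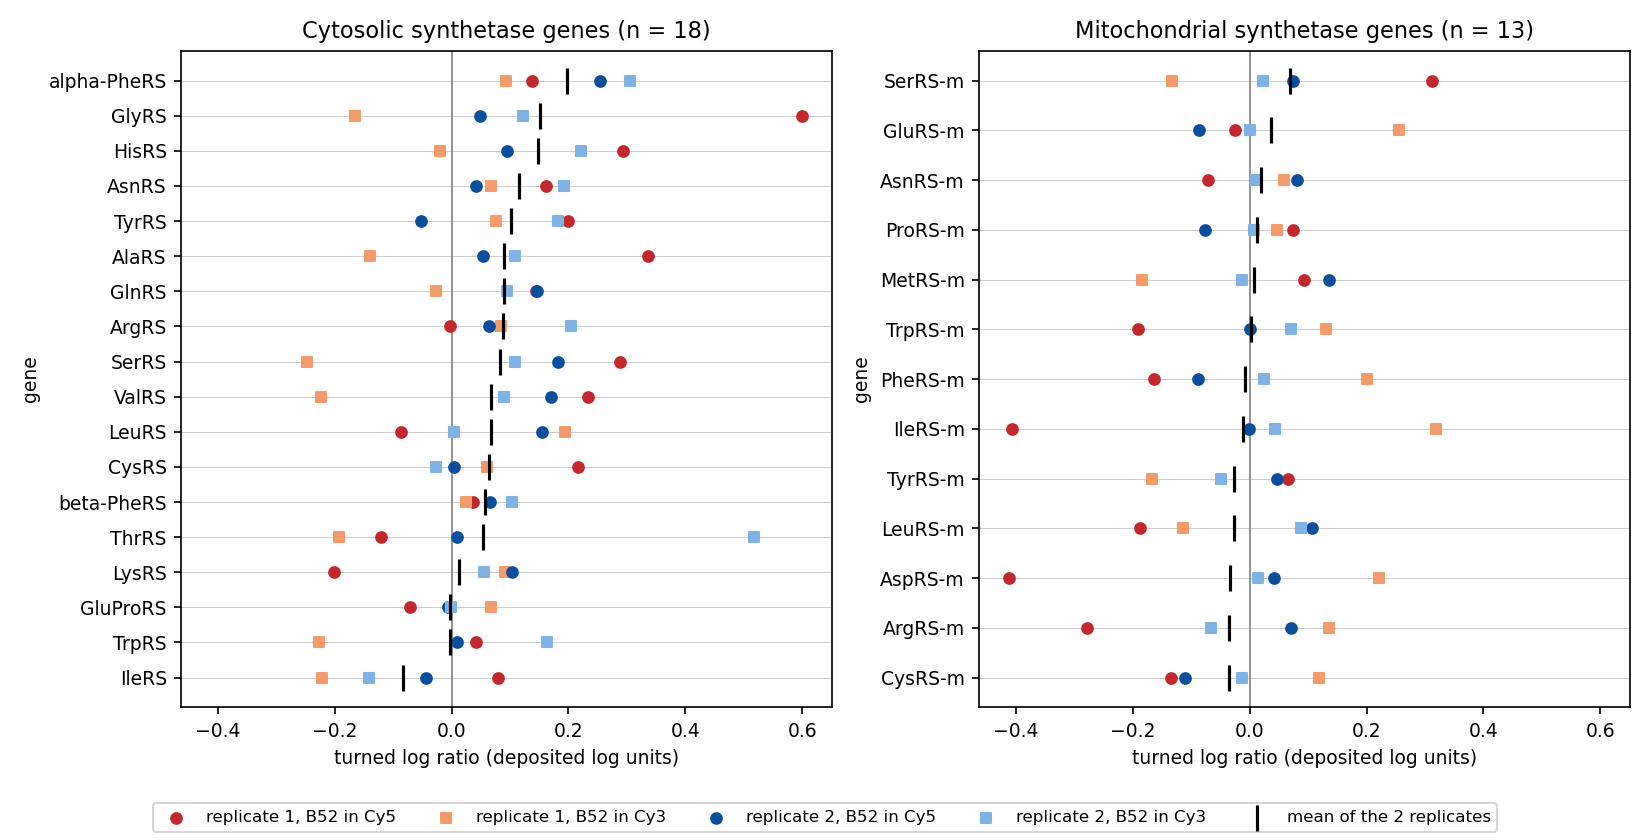
Turned log ratio, in deposited log units, of each cytosolic (left, 18 genes) and mitochondrial (right, 13 genes) synthetase gene on the 4 arrays, with probes of a gene averaged and the mean of the 2 replicates as a bar. The bar lies above 0 for 15 of the cytosolic and 6 of the mitochondrial genes, and only alpha-PheRS, AsnRS and beta-PheRS have all 4 points above 0.

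On single arrays, the difference between the compartments was uneven. On the Cy5 array of replicate 1, the cytosolic median was 0.141 and the mitochondrial one -0.135, a difference of 0.276. On the other array of replicate 1 the order was turned round, with 0.0025 against 0.118 and a difference of -0.116. In replicate 2 the cytosolic median was the higher on both arrays, by 0.0180 on the Cy5 array and by 0.0985 on the Cy3 array. Without the Cy5 array of replicate 1, the difference of medians was -0.0108 in place of 0.0826, with medians of 0.0415 for cytosolic and 0.0522 for mitochondrial genes. Of the genes, 12 of 18 cytosolic and 9 of 13 mitochondrial ones then had a mean above 0, beside 52.3% of all genes. Without the Cy3 array of replicate 1 it was 0.163, with medians of 0.118 and -0.0450. In such a mean, 1 replicate is seen in only 1 orientation, where dye and precipitate cannot be told apart.

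**Figure D2:**
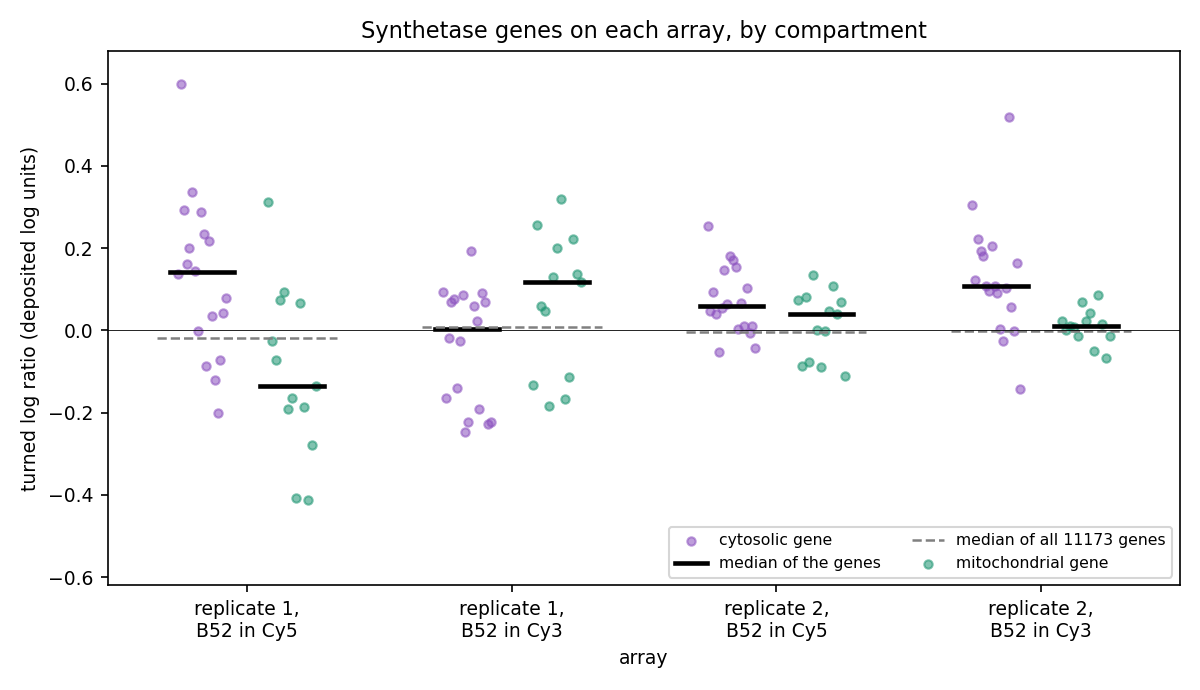
Turned log ratio, in deposited log units, of the 18 cytosolic and 13 mitochondrial synthetase genes on each array, 1 point per gene, with the median of each compartment and of all 11173 genes as lines. The cytosolic median lies above the mitochondrial one on 3 of 4 arrays, and on the Cy3 array of replicate 1 it lies below.

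Of the synthetase genes with all 4 array values, alpha-PheRS, for a subunit of the cytosolic phenylalanyl enzyme, was the highest on the turned reading. It lay at 0.138, 0.0930, 0.254 and 0.305 on the 4 arrays, so all 4 were on the B52-probe side and the lowest came from replicate 1. Its mean was 0.198 ± 0.116 (SD, n = 2), or 1.58-fold if the log base is 10 and 1.15-fold if it is 2 (adjusted p = 0.319 in limma). Without turning, its mean was 0.00150 ± 0.0339 (SD, n = 2). The gene, CG2263, lies on the X chromosome from 8143904 to 8145602 in Release 6. The partner subunit, beta-PheRS, was on that side on every array too, at 0.0360, 0.0240, 0.0660 and 0.103, with a mean of 0.0573 ± 0.0385 (SD, n = 2; adjusted p = 0.631 in limma). Thus both subunits of the enzyme shared the direction, and alpha-PheRS was the farther from 0 on each array. Genes above 0 on all 4 arrays made up 5.93% of all genes and 3 of the 18 cytosolic ones, namely these 2 and AsnRS, and genes below 0 on all 4 made up 8.37% of all genes and no synthetase gene.

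AsnRS, the cytosolic asparaginyl enzyme, had values of 0.161, 0.0680, 0.0410 and 0.192. In each replicate the 2 orientations thus lay apart by more than the replicate means did. The mean was 0.116 ± 0.00141 (SD, n = 2; adjusted p = 0.39 in limma). HisRS, the histidyl enzyme, lay at 0.293, -0.0190, 0.0940 and 0.221, and 1 array was just on the opposite side. Its mean was 0.147 ± 0.0145 (SD, n = 2; adjusted p = 0.324 in limma), and leaving out 1 array or replicate kept it between 0.0692 and 0.225.

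GlyRS rested mostly on 1 array. Its values were 0.6, -0.165, 0.0480 and 0.123, the first being the highest of any cytosolic gene on any array. The mean was 0.152 ± 0.0933 (SD, n = 2; adjusted p = 0.374 in limma), and without the Cy5 array of replicate 1 it was -0.0398. In flies and humans the glycyl enzyme gene serves both the cytosol and mitochondria, and mutations of the human gene cause an inherited disease of peripheral nerves.

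TyrRS, the tyrosyl enzyme, whose human counterpart is also tied to nerve disease, lay at 0.200, 0.0760, -0.0530 and 0.182, with a mean of 0.101 ± 0.0520 (SD, n = 2; adjusted p = 0.459 in limma). AlaRS, GlnRS, ArgRS, SerRS, ValRS, LeuRS and CysRS followed with means between 0.0635 and 0.0900, each above 0 on 3 of 4 arrays. Their order is not settled by the data, since the SD over 2 replicates lay between 0.0127 and 0.106 for these 7 genes. AlaRS, SerRS and ValRS had the pattern of GlyRS, with the Cy5 array of replicate 1 at 0.337, 0.288 and 0.234. The other array of replicate 1 was at -0.139, -0.247 and -0.224 for these 3 genes, and without the former array their means were -0.0290, -0.0508 and -0.0467.

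The lowest cytosolic genes were IleRS, TrpRS, GluProRS, LysRS and ThrRS. IleRS, for isoleucine, was the only one with 2 complete probes that both lay on the opposite side. Probe 12141 was at 0.0100, -0.198, -0.130 and -0.244, a mean of -0.141 ± 0.0658 (SD, n = 2; adjusted p = 0.369 in limma). Probe 12973 was at 0.148, -0.247, 0.0420 and -0.0400, a mean of -0.0243 ± 0.0357 (SD, n = 2; adjusted p = 0.854 in limma). The probes had the same sign on 3 of 4 arrays and differed on the Cy5 array of replicate 2. Over both probes the gene lay at -0.0824 ± 0.0150 (SD, n = 2), and all other cytosolic genes had a mean of at least -0.0030.

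The 2 probes of TrpRS, for tryptophan, had means of opposite sign. Probe 11180 was at 0.0780, -0.214, 0.0230 and 0.302, a mean of 0.0472 ± 0.163 (SD, n = 2; adjusted p = 0.808 in limma). Probe 9868 was at 0.006, -0.240, -0.00400 and 0.0250, a mean of -0.0532 ± 0.0902 (SD, n = 2; adjusted p = 0.706 in limma). They shared the low value on the Cy3 array of replicate 1, and each mean was within its SD of 0.

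ThrRS, for threonine, was spread most widely. Its complete probe 10688 was at -0.120, -0.192, 0.0100 and 0.518, with a mean of 0.0540 ± 0.297 (SD, n = 2; adjusted p = 0.862 in limma). Both arrays of replicate 1 were below 0 and both of replicate 2 above it, and the size of the latter mean came mostly from 1 array. The second probe, 9949, had values in replicate 2 alone, at -0.0450 and 0.111, and entered no test. LysRS, the lysyl enzyme, lay at -0.201, 0.0910, 0.103 and 0.0560, a mean of 0.0123 ± 0.0951 (SD, n = 2; adjusted p = 0.942 in limma), with the first array apart from the other 3. GluProRS was the cytosolic gene nearest to 0, at -0.0720, 0.0680, -0.00600 and -0.00100, with a mean of -0.00275 ± 0.00106 (SD, n = 2; adjusted p = 0.982 in limma).

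Class II enzymes had the higher median among the cytosolic genes. All 9 genes of class II had a mean above 0, with a median of 0.0900, and 7 of them were above 0 in both replicates. Of 8 genes of class I 6 had a mean above 0, with a median of 0.0673, and 5 were above 0 in both replicates. GluProRS, which joins an enzyme of each class, was left out of both counts. Of the enzymes of the animal multisynthetase complex, 6 were measured and 4 had a mean above 0, with a median of 0.0395, while of the 12 cytosolic genes outside it 11 had a mean above 0, with a median of 0.0865. The 2 complex members below 0 were IleRS and GluProRS. Without turning the order was the opposite, with 4 of 6 complex enzymes above 0 and a median of 0.0343, against 5 of 12 genes and -0.0375 outside the complex. The class medians without turning were 0.00150 for class II, with 5 of 9 genes above 0, and -0.0379 for class I, with 3 of 8. On the Cy3 array of replicate 1 the class medians changed order, with -0.0190 for class II and 0.0165 for class I.

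No mitochondrial gene had 1 direction on all 4 arrays. SerRS-m, the seryl enzyme, was the highest of those with a value on all arrays. It lay at 0.312, -0.133, 0.0740 and 0.0220, with a mean of 0.0688 ± 0.0293 (SD, n = 2; adjusted p = 0.559 in limma). It was the only one of those genes above 0 in both replicates, and without the Cy5 array of replicate 1 its mean was -0.0425. GluRS-m, the glutamyl enzyme, lay at -0.0250, 0.256, -0.0870 and 0.00, with a mean of 0.0360 ± 0.112 (SD, n = 2; adjusted p = 0.825 in limma). Only the Cy3 array of replicate 1 was above 0, and replicate 2 was below it.

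AsnRS-m, ProRS-m and MetRS-m completed the 5 highest of the mitochondrial genes with a value on all arrays. Each was within its SD of 0, with adjusted p between 0.884 and 0.96 in limma. AsnRS-m lay at -0.0720, 0.0590, 0.0810 and 0.0100, a mean of 0.0195 ± 0.0368 (SD, n = 2). ProRS-m lay at 0.0750, 0.0470, -0.0770 and 0.00700, a mean of 0.0130 ± 0.0679 (SD, n = 2). MetRS-m lay at 0.0930, -0.184, 0.135 and -0.0140, a mean of 0.00750 ± 0.0750 (SD, n = 2). In AsnRS-m and ProRS-m 3 of 4 arrays were above 0, in MetRS-m both Cy5 arrays. ProRS-m is the gene of the prolyl enzyme of mitochondria, the cytosolic prolyl activity being part of GluProRS.

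The 5 lowest mitochondrial genes were CysRS-m, ArgRS-m, AspRS-m, LeuRS-m and TyrRS-m. CysRS-m lay at -0.135, 0.118, -0.111 and -0.0130, a mean of -0.0353 ± 0.0378 (SD, n = 2; adjusted p = 0.774 in limma). ArgRS-m lay at -0.279, 0.136, 0.0700 and -0.0660, a mean of -0.0348 ± 0.0520 (SD, n = 2; adjusted p = 0.786 in limma). AspRS-m, the aspartyl enzyme, lay at -0.412, 0.221, 0.0410 and 0.0150, a mean of -0.0338 ± 0.0873 (SD, n = 2; adjusted p = 0.82 in limma). In ArgRS-m and AspRS-m the 2 orientations of replicate 1 had opposite signs and gave replicate means of -0.0715 and -0.0955. LeuRS-m, the leucyl enzyme, lay at -0.187, -0.114, 0.107 and 0.0870, and its replicates opposed each other with means of -0.151 and 0.0970. TyrRS-m lay at 0.0660, -0.168, 0.0470 and -0.0490, a mean of -0.0260 ± 0.0354 (SD, n = 2; adjusted p = 0.842 in limma).

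TrpRS-m at 0.00225 ± 0.0470, PheRS-m at -0.00725 ± 0.0357 and IleRS-m at -0.0118 ± 0.0456 (SD, n = 2) lay between these. IleRS-m was like AspRS-m on replicate 1, at -0.407 and 0.319, and near 0 on replicate 2, at -0.00200 and 0.0430. ValRS-m, the valyl enzyme, had no value on the Cy5 array of replicate 2 and so no place in the counts above. Its other 3 values were -0.287, 0.459 and 0.310, and with replicate 2 represented by 1 array its mean was 0.198 (adjusted p = 0.472 in limma).

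Where both compartments have their own gene for an amino acid, which of them was the higher depended on the reading. There were 10 such pairs of measured genes, with PheRS-m set against both cytosolic subunits, and on the turned reading the cytosolic mean was higher in 8, with a median difference of 0.0948. Without turning the cytosolic mean was lower in 8 of the 10, and only the pairs of tyrosine, at 0.110, and leucine, at 0.0190, stayed above 0. The difference for alpha-PheRS was then -0.118, for cysteine -0.135 and for arginine -0.0130. The values that follow are turned. In 6 pairs the cytosolic gene was higher in both replicates, and in 1, IleRS against IleRS-m, it was lower in both, by a mean of -0.0706 ± 0.0606 (SD, n = 2). The pair of arginine had the smallest SD over replicates for its size. ArgRS was above ArgRS-m by 0.113 in replicate 1 and 0.132 in replicate 2, a mean of 0.123 ± 0.0134. Its single arrays were uneven, with differences before turning of -0.277, -0.051, 0.006 and 0.270. The 2 orientations of each replicate thus lay farther apart than the replicate means did. The alpha-PheRS gene exceeded PheRS-m by 0.205 ± 0.152, TyrRS exceeded TyrRS-m by 0.127 ± 0.0873, CysRS exceeded CysRS-m by 0.0988 ± 0.0682 and AsnRS exceeded AsnRS-m by 0.0960 ± 0.0354. The serine pair differed by 0.0143 ± 0.118 and the tryptophan pair by -0.00525 ± 0.0796 (SD, n = 2), both less than their spread.

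**Figure D3:**
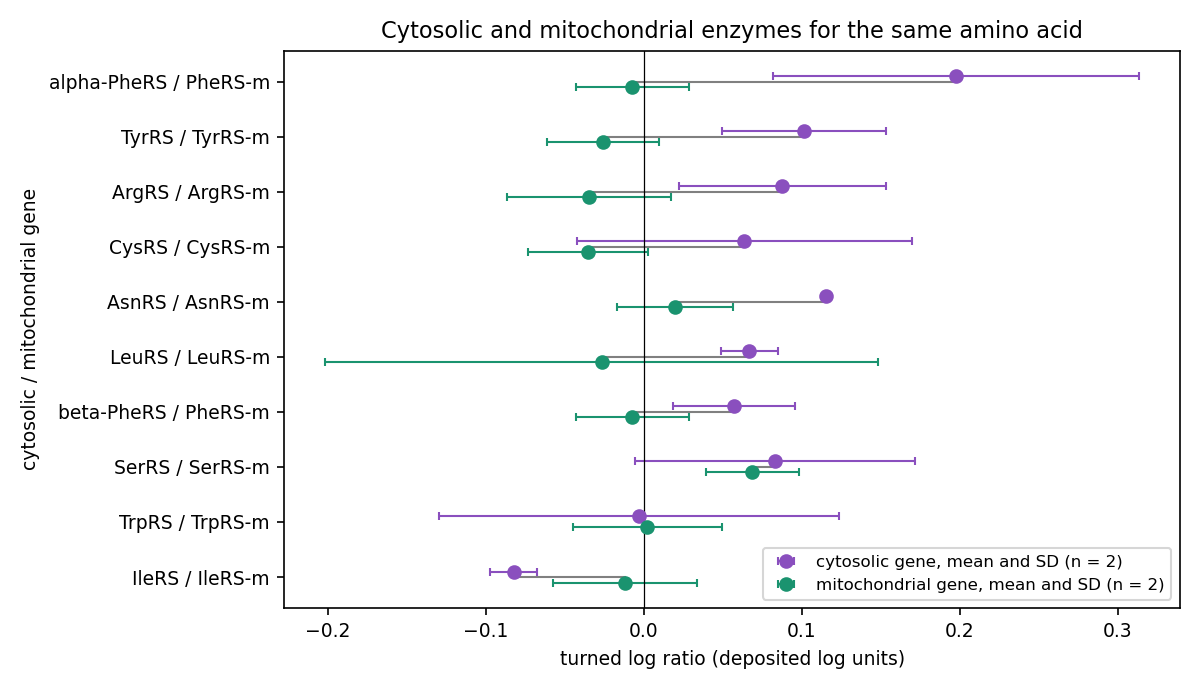
Mean turned log ratio, in deposited log units, of the cytosolic and the mitochondrial gene for the same amino acid, with the SD over 2 replicates. The cytosolic gene lies to the right in 8 of 10 pairs, and to the left for tryptophan and isoleucine; without turning the cytosolic mean is the lower in 8 of 10.

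Before any turning, the mitochondrial genes differed from the cytosolic ones mainly in replicate 1, where both orientations gave values of the same sign for many genes. The counts here were made after the median of each array was subtracted, while values of single genes are as deposited. For values near 0 the sign depends on that step, as for TrpRS-m, deposited at 0.001 and 0.072 in replicate 2. On both arrays of replicate 1, 8 of 13 mitochondrial genes were above 0, beside 38.2% of all genes, and 3 were below it. Of the 18 cytosolic genes 4 were above 0 on both of these arrays and 8 were below 0 on both, beside 33.5% of all genes. AspRS-m was deposited at 0.416 and 0.227 in replicate 1, IleRS-m at 0.411 and 0.325 and ValRS-m at 0.291 and 0.465. GlyRS was deposited at -0.596 and -0.159, SerRS at -0.284 and -0.241 and ValRS at -0.230 and -0.218. In replicate 2, 3 mitochondrial genes were above and 3 below 0 on both arrays, and of the cytosolic genes 1 and 1, where 20.4% of all genes were above and 20.2% below.

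Over all probes the 2 orientations of replicate 1 correlated at r = 0.608 as deposited, those of replicate 2 at r = -0.167, across 13963 probes of the same arrays. A ratio that follows the precipitates turns its sign with the dyes in columns of a fixed dye ratio, and keeps it in columns already turned. Which kind the columns are is not stated, so both readings of the synthetase values are given. Without turning, 10 of 13 mitochondrial and 9 of 18 cytosolic genes had a mean above 0, as had 52.5% of all genes. The medians were then 0.0698 and -0.0136, and the cytosolic minus the mitochondrial median was -0.0834. It was -0.197 in replicate 1 and 0.0320 in replicate 2, so only replicate 1 had the mitochondrial genes higher. With the array medians subtracted, 2 mitochondrial genes were above 0 on all 4 arrays and 2 below it. No cytosolic gene was either, where 12.3% and 9.73% of all genes were. No synthetase probe passed without turning either, the lowest adjusted p being 0.579 in limma, although 92 of all probes did. The order of the 2 medians thus depended on the reading.

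**Figure D4:**
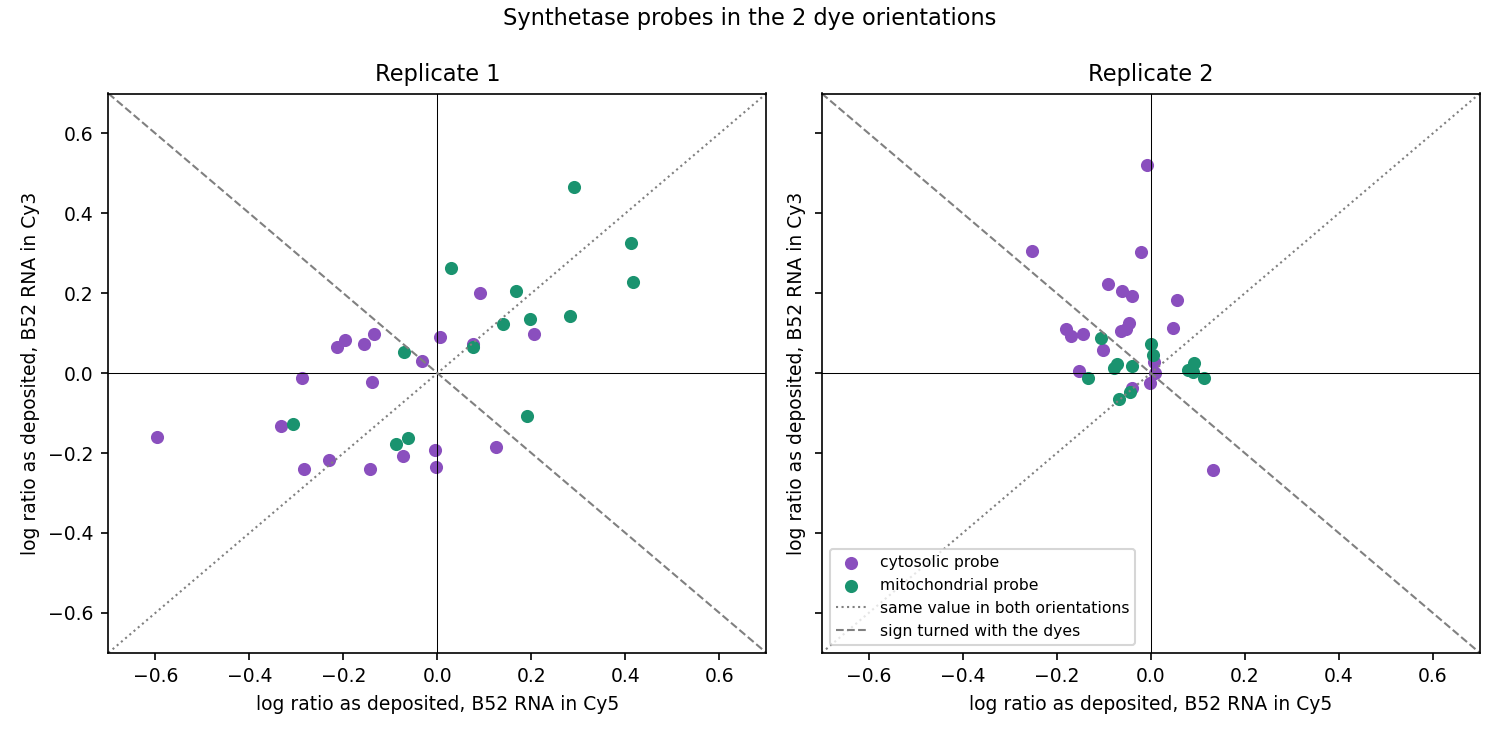
Log ratios as deposited for synthetase probes with both dye orientations of a replicate, the Cy5 array on the horizontal and the Cy3 array on the vertical axis, with lines for equal values and for turned signs. In replicate 1 many points follow the line of equal values, with mitochondrial probes at the upper right and cytosolic ones at the lower left, and in replicate 2 most cytosolic probes lie at the upper left.

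The synthetase genes lie on all major chromosome arms, 10 of the 35 on 3L, 8 on 2R, 7 on 3R, 6 on 2L and 4 on X. The closest neighbours among them are a mitochondrial and a cytosolic gene on 3L. GluRS-m, CG4573, spans 16415292 to 16417177 and TyrRS, CG4561, spans 16417349 to 16419302, with 171 bases between them. Their means of 0.0360 ± 0.112 and 0.101 ± 0.0520 (SD, n = 2) lay on the same side, and their order was not the same on all arrays, since GluRS-m was the higher on that of replicate 1 with B52 RNA in Cy3, at 0.256 against 0.0760. Positions are those of the genes, and where in a gene each probe lies was not analysed here.

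Other genes of charging and its control lay on both sides of 0. Of the scaffolds and relatives of the synthetases, 6 of 7 were measured and 4 had a mean above 0, with a median of 0.0224; without turning 2 of 6 did, with a median of -0.0249. The scaffolds of the multisynthetase complex, AIMP1, AIMP2 and AIMP3, lay at 0.0367 ± 0.186, 0.0272 ± 0.0378 and 0.0435 ± 0.0446 (SD, n = 2). GatB, of the amidotransferase that makes glutaminyl-tRNA in mitochondria, was the only gene of this list with 1 direction on all 4 arrays, at -0.112, -0.0550, -0.196 and -0.275. Its mean was -0.160 ± 0.107 (SD, n = 2; limma over genes, adjusted p = 0.245), and without turning it was -0.00550. Its partner GatA had a mean above 0, and Slimp, a relative of SerRS-m in insect mitochondria, one below 0.

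Of the factors that bring charged tRNA to the ribosome, 5 of 6 measured genes had a mean above 0, with a median of 0.0440; without turning 3 of 6 did, with a median of -0.00725. eEF1gamma and eEF1delta, of the exchange factor for the cytosolic carrier, lay at 0.122 ± 0.00778 and 0.134 ± 0.0491 (SD, n = 2), and eEF1gamma was above 0 on all 4 arrays, at 0.169, 0.0850, 0.108 and 0.124. Their adjusted p over genes was 0.281 and 0.26 in limma, and without turning they lay at -0.0170 and -0.0695. The carrier eEF1alpha2 lay at 0.0450 ± 0.0339 and the mitochondrial carrier mEFTu1 at 0.0430 ± 0.0141, the latter above 0 on all 4 arrays as well. Among 9 measured genes of tRNA processing and modification 5 had a mean above 0, with a median of 0.0210, from La at -0.0887 ± 0.00955 to Elp2 at 0.0988 ± 0.0449. Without turning 6 of the 9 were above 0, with a median of 0.0405, and La and Elp2 changed sides, at 0.0483 and -0.126.

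Of the response to uncharged tRNA, 4 of 6 genes were measured and 2 had a mean above 0. The kinase gene Gcn2, whose protein senses uncharged tRNA, was above 0 on all 4 arrays, at 0.121, 0.0460, 0.05 and 0.0880, with a mean of 0.0763 ± 0.0103 (SD, n = 2; limma over genes, adjusted p = 0.488). Gadd45 was above 0 on all 4 arrays too, with a mean of 0.132 ± 0.100 (SD, n = 2). The transcription factor gene crc, the fly counterpart of ATF4, which in mammals drives many synthetase genes in this response, lay at -0.0562 ± 0.0152, and PEK, another kinase of the same initiation factor, at -0.0897 ± 0.106. All 4 changed sides without turning, Gcn2 at -0.00925, Gadd45 at -0.0812, crc at 0.0587 and PEK at 0.0387. No gene of these lists passed the test over genes.

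Markers of tissues in the front end were spread to both sides on the turned reading. Since the files hold ratios and no levels, the presence of eye disc tissue could not be checked. Of 8 eye disc markers 4 had a mean above 0, with a median of 0.00425, and medians of the small lists of other tissues ran from -0.146 for trachea, with 2 genes, to 0.156 for muscle, with 2 genes. Of 4 glial markers none had a mean above 0, with a median of -0.145, while 3 of 4 hemocyte markers and 3 of 4 salivary gland markers did, with medians of 0.104 and 0.139. The median was -0.109 for 5 neuroblast markers and -0.0491 for 2 of fat body. Without turning, the medians of neuroblast, fat body, salivary gland and muscle markers changed sign, to 0.0393, 0.00537, -0.0916 and -0.0310. Those of eye disc, glia, hemocytes and trachea were 0.0511, -0.0402, 0.0296 and -0.00287. Their part in the values of the synthetase genes was not tested. The arrays differed in spread, with a median absolute deviation of 0.248 and 0.219 in replicate 1 and of 0.122 and 0.136 in replicate 2. These are spreads of single arrays, and how much each replicate weighs in the means was not tested.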

How the data were processed

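The authors deposited 1 table of log ratios, a unit of another kind than counts, for 15744 probes on 4 arrays; no source used here gives their base, direction, background correction or normalization. Groups and dyes were taken per the labels. The 16 cells at -10000 were treated as missing. Between 14788 and 15394 probes per array had a value, and the number of arrays limits precision. Probes were named from the supplied platform annotation, through the gene identifier to Release 6 symbols; 13147 probes had 1 symbol, 99 several and 2498 none here.

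The median of each array was subtracted, the sign of both Cy5 arrays was turned, and the 2 orientations of a replicate were averaged, so n is 2. Probes with values on all 4 arrays were tested across all probes in limma 3.58.1 (R 4.3.3), lmFit and eBayes on the replicate means against 0, with Benjamini-Hochberg adjustment and a threshold of 0.05. The prior held 3.47 degrees of freedom. For lists, complete probes of a gene were averaged, which gave 11173 genes. The fit was tested on simulated data. The simulation planted differences larger than any synthetase mean, and gave all probes noise of the same spread, drawn independently for each array. It therefore does not show how many differences the fit would find in these arrays.

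Members and lists were chosen with earlier results of these data known. Values on every array were to be given for the 5 highest and 5 lowest genes of each compartment, for probes of 1 direction with an unadjusted p under 0.05, and for genes with disagreeing probes; other values named, such as those of AlaRS, IleRS-m or ValRS-m, were chosen after they were seen. Alternatives are described in the closing section.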

Additional observations from a re-analysis of the deposited data

Results flagged for a closer look

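For 2 synthetase probes, 1 of the 4 array values stood far from the other 3, by a gap relative to the whole range above Dixon's critical value for 4 values. Probe 9868 of TrpRS was at -0.240 on the Cy3 array of replicate 1, with a gap of 0.891 of the range. Probe 12417 of LysRS was at -0.201 on the Cy5 array of replicate 1, with a gap of 0.845 of the range. Chance marks about 1 in 20 such sets of values, and 33 probes were examined.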

How the results depend on the processing

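In the fits run, no synthetase probe passed in limma, neither without centring, with scaled arrays, with at least 1 array per replicate, with any array left out, with 4 separate arrays with or without a dye term, with robust moderation, with genes in place of probes, without turning, nor with the replicate number as a random replicate block, where 0 synthetase probes passed although 447 of all probes did. The random block had a correlation of -0.664 within a replicate, which narrows the error of a mean. Over all probes 1 passed with robust moderation, 1 with genes in place of probes and 92 without turning. The rule of size was met by 20 probes, by 146 at a distance of 0.176, by 7 with scaled arrays and by 40 without turning; a shorter distance admits more probes by construction, and for the others the cause was not tested. Leaving out each replicate or array gave cytosolic medians from 0.0415 to 0.118, mitochondrial medians from -0.0450 to 0.0522 and differences from -0.0108 to 0.163, the lowest difference without the Cy5 array of replicate 1. Without turning the medians were -0.0136 and 0.0698 and the difference -0.0834. Leaving out GluProRS gave a cytosolic median of 0.0830.

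Signs of single probes were less stable. With scaled arrays LeuRS-m lay at 0.0108, ProRS-m at -0.00289 and IleRS-m at 0.00484, with a sign opposite to the main one. Without turning, 17 probes changed sign. Cytosolic probes lay at -0.106 for AlaRS, 0.0363 for GluProRS, -0.0462 for HisRS, -0.172 for GlyRS, -0.152 for SerRS, -0.135 for ValRS, -0.00325 for TrpRS probe 11180, -0.0558 for GlnRS and -0.0470 for CysRS. Mitochondrial probes lay at -0.124 for SerRS-m, 0.119 for PheRS-m, 0.0132 for LeuRS-m, 0.0698 for ArgRS-m, -0.106 for MetRS-m, 0.152 for AspRS-m, 0.0878 for CysRS-m and 0.193 for IleRS-m.

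When a replicate or an array was left out, 25 of 33 probes changed sign at least once. The ranges of the cytosolic ones were -0.0290 to 0.209 for AlaRS, -0.0115 to 0.139 for CysRS, -0.0378 to 0.0323 for GluProRS, -0.0398 to 0.343 for GlyRS, -0.123 to 0.0745 for IleRS probe 12973, -0.00325 to 0.137 for LeuRS, -0.0608 to 0.0852 for LysRS, -0.0508 to 0.217 for SerRS, -0.156 to 0.264 for ThrRS, -0.117 to 0.0105 for TrpRS probe 9868, -0.0680 to 0.163 for TrpRS probe 11180 and -0.0467 to 0.182 for ValRS. Those of the mitochondrial ones were -0.139 to 0.0690 for ArgRS-m, -0.0132 to 0.0522 for AsnRS-m, -0.192 to 0.125 for AspRS-m, -0.0985 to 0.0280 for CysRS-m, -0.0435 to 0.116 for GluRS-m, -0.193 to 0.170 for IleRS-m, -0.151 to 0.0970 for LeuRS-m, -0.0618 to 0.0767 for MetRS-m, -0.0983 to 0.0838 for PheRS-m, -0.0350 to 0.0610 for ProRS-m, -0.0425 to 0.180 for SerRS-m, -0.0783 to 0.0828 for TrpRS-m and -0.0845 to 0.0325 for TyrRS-m. The probes of alpha-PheRS, HisRS, AsnRS, TyrRS, GlnRS, ArgRS and beta-PheRS and probe 12141 of IleRS kept their sign in each of these. Spot brightness was not analysed here, and how far a signal lay above background is not known.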
